A study of Mus musculus with 6 samples.

Results

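Got1, Gpt2, Tat, Tdo2, Sds, Asl and Arg1 encode 7 liver enzymes of amino acid breakdown and the urea cycle. They were examined as a group in liver RNA sequencing from mice that received an adeno-associated virus (AAV), here the carrier that delivered a gene. The 7 genes were chosen by their values in this same contrast, as enzymes known to be higher in the AAV-Ly6d libraries, so their differences between the groups are given as a description, with no test. They are 7 of the 1834 genes in the deposited table, and all 7 passed the filter on low values.

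The control group is wild type and received AAV-GFP, which carries green fluorescent protein (3 libraries). The other group is labelled as Ly6d overexpression and received AAV-Ly6d, which carries the small membrane-anchored protein Ly6d (3 libraries). All mice were on the same diet per the study's design text, and the study title concerns metabolic dysfunction-associated steatotic liver disease. The sources used here do not give the sex, age, diet, virus serotype or promoter, or whether each library is a separate animal, so the spread between libraries may be technical in part. The vector's gene fits the labels, since the normalised read count of Ly6d was 3181, 1799 and 3275 under AAV-Ly6d against 56.1, 9.68 and 182 under AAV-GFP.

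Transaminases move the amino group of an amino acid to a keto acid, which leaves a carbon skeleton for glucose synthesis or oxidation. Dehydratases and oxygenases open other routes of breakdown, and the nitrogen set free enters the urea cycle. These steps are concentrated in periportal hepatocytes, the liver cells nearest the incoming blood, and are known to be raised by fasting, glucagon, glucocorticoids and dietary protein.

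The sequence just upstream of the start sites is shown because the 7 genes were high in the same libraries, so that short motifs shared by their promoters can be seen. RefSeq start sites (GRCm38.p6) were matched for Got1, Gpt2, Tat and Tdo2 and not for Sds, Arg1 and Asl. Each line gives the 250 bases before the start site, 5′ to 3′ on the gene's strand, with matches to any of 8 searched motifs in capitals. Got1 lies on the minus strand (chr19:43524606-43524855), Gpt2 on the plus strand (chr8:85492326-85492575) and Tat on the plus strand (chr8:109990186-109990435).
Got1: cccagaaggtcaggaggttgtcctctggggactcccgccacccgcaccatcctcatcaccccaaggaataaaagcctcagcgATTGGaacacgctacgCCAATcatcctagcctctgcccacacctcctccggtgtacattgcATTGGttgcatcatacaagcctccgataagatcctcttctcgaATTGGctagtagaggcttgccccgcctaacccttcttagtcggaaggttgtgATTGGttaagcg
Gpt2: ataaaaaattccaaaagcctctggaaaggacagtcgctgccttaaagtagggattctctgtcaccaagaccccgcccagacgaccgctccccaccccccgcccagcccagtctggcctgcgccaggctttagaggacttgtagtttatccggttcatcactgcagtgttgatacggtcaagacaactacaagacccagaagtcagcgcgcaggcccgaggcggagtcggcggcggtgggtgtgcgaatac
Tat: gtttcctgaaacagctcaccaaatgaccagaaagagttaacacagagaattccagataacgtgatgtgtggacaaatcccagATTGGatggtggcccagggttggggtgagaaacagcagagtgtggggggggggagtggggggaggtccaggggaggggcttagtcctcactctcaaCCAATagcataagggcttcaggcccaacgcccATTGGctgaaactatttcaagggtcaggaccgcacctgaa
The window of Tdo2 lies wholly inside an annotated exon of the gene and is not printed.

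Every capital in these lines belongs to CCAAT, a promoter motif, read on either strand. Got1 held 5 matches and Tat held 3, whereas Gpt2 held 0. Of 32817 upstream windows of the same length over all genes, 33.8% held CCAAT at least once, 2.79% at least 3 times and 0.213% at least 5 times. Among listed amino acid enzymes in the deposited table, 9 of 17 windows held CCAAT at least once. These 17 include the 4 windows of the chosen genes, of which 3 held it. The other motifs, searched on both strands, were TGTTCT (glucocorticoid receptor half-site, in 16.1% of all windows), TGACG (cAMP response half-site, 17.7%) and TGACGTCA (full cAMP response element, 1.55%, which contains the half-site). TTGCNNAA (C/EBP, 9.57%) and the HNF4 half-site CAAAGT (12.6%) were also searched. So were the forkhead motif TGTTTAC, bound by FOXA and FOXO factors and present in 3.16% of windows, and the core promoter element TATAAA, present in 12.4%. None of these other motifs was found in the windows of Got1, Gpt2 and Tat, and Tdo2 held TATAAA once and CCAAT once. A missing match says only that the letters are not in these windows.

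All 7 enzyme genes were higher in AAV-Ly6d, by 1.63 to 2.21 times in group means, and in none did the groups overlap. The median log2 difference was 0.92, against -0.67 over the 1780 tested genes. In limma, a linear model fitted to log2(value + 1) over all tested genes, all 7 passed an adjusted p of 0.05, as did 15.9% of the tested genes in the higher direction. Groups did not overlap, with AAV-Ly6d higher, for 35.2% of the tested genes. As the genes were chosen on this contrast, nothing is read from either count. In bulk tissue, fewer or more cells of a type and less or more RNA per cell cannot be told apart. The plot of values by library shows every point.

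**Figure D1:**
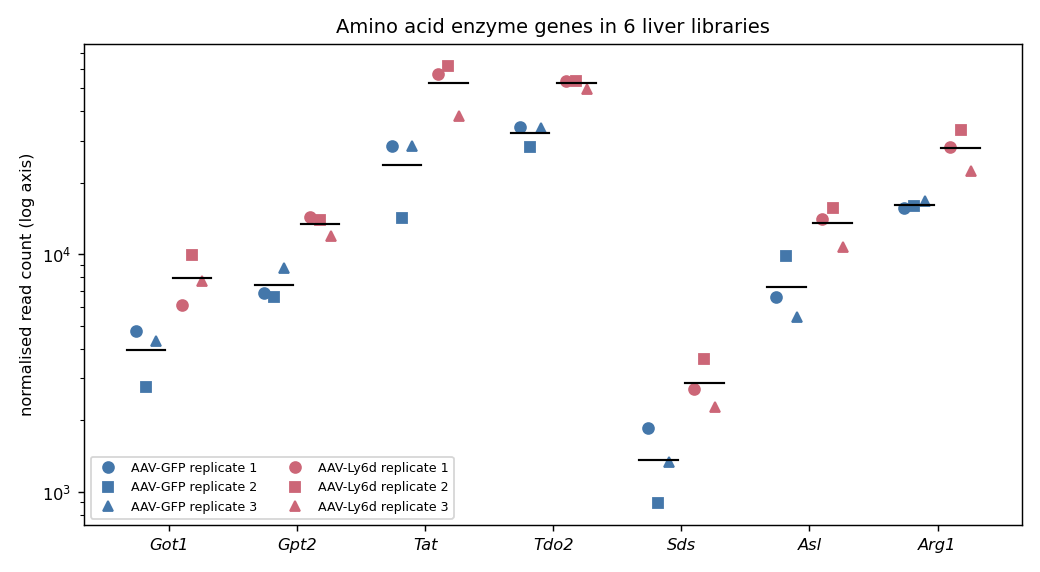
Normalised read counts (log axis) of the 7 enzyme genes in each library, with AAV-GFP in blue, AAV-Ly6d in red and marker shapes for the replicate number; black bars are group means of 3 libraries. For each gene the lowest AAV-Ly6d library lies above the highest AAV-GFP library, with the narrowest gap in Asl (1.09 times) and the widest in Tdo2 (1.45 times).

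Among the transaminases, Tat had the largest difference of the 7. Tat encodes tyrosine aminotransferase, which starts tyrosine breakdown (ENSMUSG00000001670, chromosome 8, 109990437 to 109999803, plus strand, 12 exons, all positions on GRCm38). Its AAV-GFP and AAV-Ly6d libraries are given as normalised read counts, as are those of every gene below. Tat had 28643, 14233 and 28517 in AAV-GFP and 57597, 62072 and 38320 in AAV-Ly6d. AAV-GFP replicate 2 lay far below its partners, and AAV-Ly6d replicate 3 was the lowest of its group. AAV-GFP averaged 23798 ± 8284 and AAV-Ly6d 52663 ± 12621 (SD, n = 3), which is a ratio of 2.21 and a log2 difference of 1.19 (SE 0.33). Without AAV-GFP replicate 2 the ratio was 1.84.

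Got1 encodes the cytosolic aspartate aminotransferase, which also serves the malate-aspartate shuttle (ENSMUSG00000025190, chromosome 19, 43499752 to 43524605, minus strand, 9 exons). It had 4758, 2765 and 4313 in AAV-GFP and 6116, 9919 and 7673 in AAV-Ly6d. AAV-Ly6d replicate 1 was the lowest of its group only in this gene. The ratio of means was 2.00 and the log2 difference 1.01 (SE 0.27). Gpt2, the mitochondrial alanine aminotransferase (ENSMUSG00000031700, chromosome 8, 85492576 to 85527560, plus strand, 12 exons), had 6888, 6593 and 8738 in AAV-GFP and 14316, 13923 and 11950 in AAV-Ly6d. Its AAV-Ly6d libraries were close together (13396 ± 1268, SD, n = 3), and the ratio was 1.81.

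Tdo2 and Sds act on single amino acids. Tdo2, the tryptophan dioxygenase that opens the kynurenine pathway (ENSMUSG00000028011, chromosome 3, 81957090 to 81976202, minus strand, 12 exons), had 34359, 28285 and 34029 in AAV-GFP and 53796, 53574 and 49784 in AAV-Ly6d. It had the smallest ratio, 1.63, and also the smallest spread within AAV-Ly6d, with a coefficient of variation of 4.30%. Sds encodes serine dehydratase, which converts serine to pyruvate and ammonia (ENSMUSG00000029597, chromosome 5, 120476526 to 120483932, plus strand, 9 exons). Its counts were 1845, 894 and 1335 in AAV-GFP and 2706, 3627 and 2274 in AAV-Ly6d, a ratio of 2.11 (log2 difference 1.11, SE 0.30).

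The reads of Sds are less certain than those of the other 6. The annotation places the opposite-strand genes Plbd2 and Gm15690 over parts of it, for 651 and 1062 bases. Of 1239 words of 50 bases in its longest transcript, 28.9% also occur in transcripts of these genes, read on either strand. Without the strand setting of the authors' counting, which the sources used here do not state, reads from both strands cannot be told apart, and neither Plbd2 nor Gm15690 is analysed here. Gpt2 shared 1.67% of its words with the gene Gm5049, and Got1, Tat, Tdo2, Arg1 and Asl shared 0.

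In the urea cycle, Asl and Arg1 carry out consecutive steps: argininosuccinate lyase releases arginine, and arginase splits it into urea and ornithine. Asl (ENSMUSG00000025533, chromosome 5, 130011258 to 130029247, minus strand, 16 exons) had 6579, 9829 and 5444 in AAV-GFP and 14119, 15665 and 10723 in AAV-Ly6d. AAV-GFP replicate 2 was its highest control library, the reverse of Tat, Got1 and Sds. The ratio was 1.85 with all libraries and 2.25 without AAV-GFP replicate 2. Arg1 (ENSMUSG00000019987, chromosome 10, 24915221 to 24927484, minus strand, 8 exons) had 15641, 15963 and 16697 in AAV-GFP and 28171, 33227 and 22353 in AAV-Ly6d. Its AAV-GFP libraries were the tightest of any of the 7 genes, with a coefficient of variation of 3.36%, against 19.5% in AAV-Ly6d. The ratio was 1.73, and the same with AAV-GFP replicate 2 left out.

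Levels can be set side by side between genes only per length. Per kilobase of the longest annotated coding transcript, the AAV-GFP means were 10901 ± 367 for Arg1, 10020 ± 3488 for Tat and 9392 ± 995 for Tdo2 (SD, n = 3). The libraries of Tat, from 5993 to 12060, spanned those of both neighbours, while the libraries of Arg1 and Tdo2 did not overlap. Asl followed at 3019 ± 943, then Gpt2 at 2035 ± 320, Got1 at 1917 ± 508 and Sds at 1054 ± 369. Each of these overlapped the next in the order. In AAV-Ly6d Tat came to 22174 ± 5314 per kilobase, Arg1 to 18901 ± 3684 and Tdo2 to 15268 ± 657, and Sds remained the lowest at 2228 ± 537. The place of Tdo2 depends on the transcript used, since its other coding transcript has 1616 bases against 3431, which would put its AAV-GFP level at 19941.

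Counting error was small beside these spreads. The fewest reads behind any value were the 831 of Sds in AAV-GFP replicate 2, for which counting error alone is 3.47%. The coefficients of variation within AAV-GFP ran from the 3.36% of Arg1 to more than 10 times that in Sds and Tat (34.8% in Tat). The reads of the whole table came to between 3248078 and 4359932 per library, and the full depth of the libraries is not known.

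The 7 genes moved together within the groups only in part. After the group mean was subtracted, Tat and Tdo2 had a Pearson r of 0.98 over the 6 libraries (4 free values), Tat and Sds 0.89, and Got1 and Sds 0.84. Asl ran against 5 of the other genes, with r from -0.54 with Tdo2 to -0.23 with Sds, and had 0.46 with Arg1. Of the 21 pairs, 10 had an r above 0.5, and the median was 0.49. All values of a library share its scaling and RNA, and with so few libraries these are descriptions only. The plot of spread within groups shows that AAV-Ly6d replicate 3 lay below the group mean for all 7 genes and AAV-Ly6d replicate 2 above it for all 7.

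**Figure D2:**
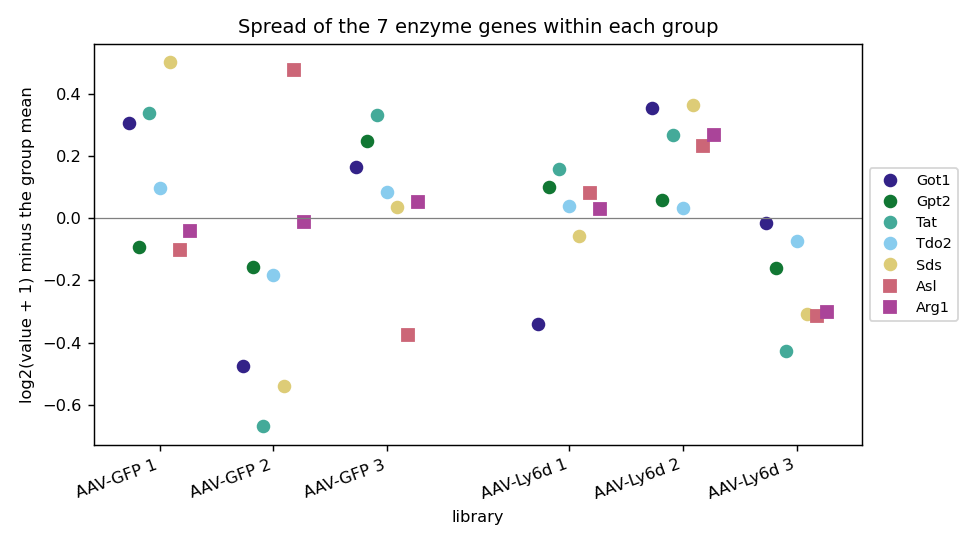
Log2(value + 1) minus the mean of its own group for each of the 7 enzyme genes (colours; urea cycle genes as squares) in each library. In AAV-GFP replicate 2, Tat lies at -0.67, Sds at -0.54 and Got1 at -0.47, while Asl lies at 0.48 and Arg1 at -0.01.

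AAV-GFP replicate 2 differed from its partners in a way that went with transcript length. Relative to replicates 1 and 3, its median log2 difference was -0.26 over the 446 tested genes with the shortest transcripts (57 to 2038 bases) and 0.73 over the 445 with the longest (5472 to 27908 bases). Over the 444 genes of 2045 to 3501 bases it was -0.07, and over the 444 of 3503 to 5469 bases 0.26. It was -0.27 over the 7 enzyme genes, whose longest transcripts have 1288 to 3639 bases. These did not follow length closely, since Tat (2375 bases) had -1.01 and Asl (2413 bases) 0.72 in this library. Without this library the log2 differences of the 7 between AAV-Ly6d and AAV-GFP ran from 0.61 in Tdo2 to 1.16 in Asl, with a median of 0.78. The median over all tested genes with a length was then -0.42. Between the groups, too, short transcripts were higher: the median log2 difference was 0.57 in the 446 shortest and -0.89 in the 445 longest. These were 0.44 and -0.64 with that library left out. For the genes of 2045 to 3501 and of 3503 to 5469 bases it was 0.39 and -0.79, or 0.32 and -0.59 without that library. The part of transcript length in the differences of the 7 genes was not tested.

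**Figure D3:**
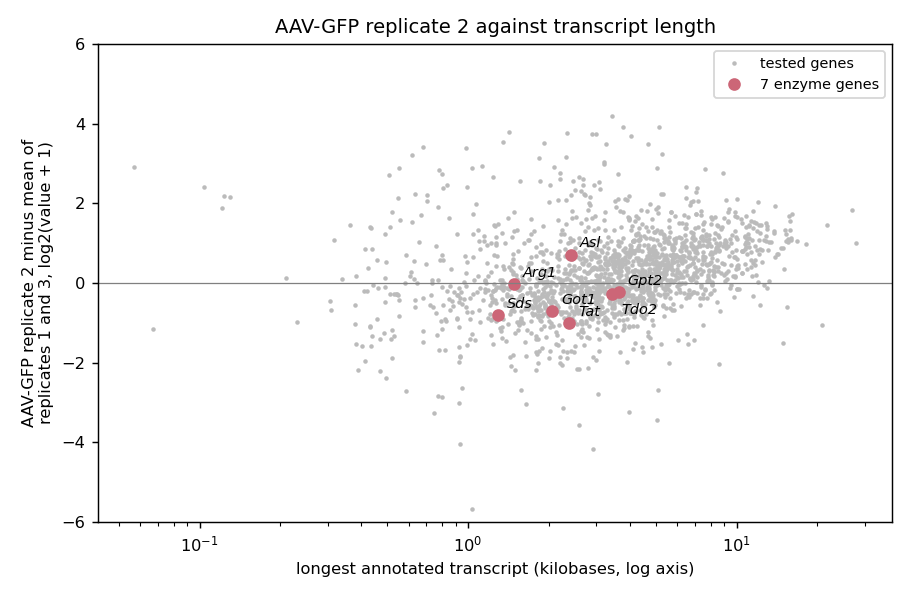
AAV-GFP replicate 2 minus the mean of AAV-GFP replicates 1 and 3, on the log2(value + 1) scale, against the length of the longest annotated transcript (log axis) for 1779 tested genes (grey) and the 7 enzyme genes (red). Tat (-1.01), Sds (-0.81) and Got1 (-0.71) lie lowest among the 7, and Asl (0.72) lies highest.

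Of the other listed enzymes of amino acid breakdown in the table, 17 of 18 had a higher mean in AAV-Ly6d, as did 700 of the 1780 tested genes. Of 103 further genes listed for 11 routes, 18 are in the table and the rest are not analysed here. In limma 9 of the 18 rose, 0 fell and 9 did not pass, beside backgrounds of 15.9% higher and 28.0% lower over the tested genes (43.9% in either direction). The median log2 difference of the 18 was 0.70, or 0.50 without AAV-GFP replicate 2. In that library the 18 had a median of -0.43 relative to AAV-GFP replicates 1 and 3. Their longest transcripts have 992 to 6226 bases. The 446 tested genes of 57 to 2038 bases had medians of 0.57, and 0.44 without that library. Those of 2045 to 3501 bases had 0.39 and 0.32, and longer genes had negative medians. The part of transcript length in the differences of the 18 was not tested. The table appears to hold genes chosen for a difference between these libraries and the lists were drawn up with earlier results known, so the 9 are not independent evidence of a direction. The 9 had adjusted p-values from 0.0324 to 0.0497 in limma. Without AAV-GFP replicate 2, 8 of the 18 rose, 7 of them among the 9. Only 1 passed when AAV-GFP replicate 1 was left out, beside 61 rises over all tested genes against 283 with all libraries. In that fit 17 of the 18 and 67.3% of all tested genes, in either direction, had an unadjusted p under 0.05. When AAV-GFP replicate 3 or any single AAV-Ly6d library was left out 0 passed, beside 0 to 57 rises over all tested genes. In those last 4 fits 9 to 11 of the 18 had an unadjusted p under 0.05. Over all genes tested in the same fits, the share in either direction was 65.3% without AAV-GFP replicate 3 and 43.8% to 49.1% without single AAV-Ly6d libraries. The share in the higher direction alone was not counted, and 17 of the 18 were higher, so nothing is read from these unadjusted counts.

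Of 14 listed enzymes of methionine and cysteine 4 were measured and 3 rose. Csad, which makes the precursor of taurine, had 2553, 2759 and 2094 in AAV-GFP and 4006, 8124 and 5264 in AAV-Ly6d, and rose by a log2 difference of 1.18 (SE 0.27, adjusted p = 0.0324 in limma). AAV-Ly6d replicate 2 was the highest, and each AAV-Ly6d library lay above each AAV-GFP library. Cth, the cystathionine lyase that forms cysteine, rose by 0.85, and Mat1a, which makes S-adenosylmethionine, by 0.71. Mat1a was the most abundant of the 18, with 97140, 99970 and 93374 in AAV-GFP and 177195, 149979 and 148157 in AAV-Ly6d. Cbs, the enzyme before Cth, did not pass (0.52, adjusted p = 0.0641 in limma).

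In the urea cycle both further genes measured rose. Ass1, whose product argininosuccinate is the substrate of Asl, had 32989, 20113 and 26167 in AAV-GFP and 40342, 56343 and 37690 in AAV-Ly6d (log2 difference 0.77, SE 0.26, adjusted p = 0.0469 in limma). Nags, which makes the activator of the cycle's entry enzyme, had 902, 779 and 857 against 1156, 1319 and 1264 (log2 difference 0.56). With Asl and Arg1 this gives 4 of 10 listed urea cycle genes with values. Their groups did not overlap, with AAV-Ly6d higher, as for 35.2% of all tested genes, and Asl and Arg1 were chosen on this contrast.

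Among further transaminases Bcat2, the mitochondrial branched chain aminotransferase, rose by 0.67. Agxt, alanine-glyoxylate aminotransferase, and Aadat, aminoadipate aminotransferase, had log2 differences of 0.98 and 0.49 and did not pass. Gls2, the liver glutaminase, rose by 0.74, Gnmt, glycine N-methyltransferase, by 0.74, and Hgd, which opens the ring of homogentisate in tyrosine breakdown, by 0.51. Hpd, the enzyme between Tat and Hgd in that route, had 0.70 and did not pass: its values in AAV-Ly6d replicate 2 (31984) and AAV-GFP replicate 1 (32144) crossed. Aass of lysine breakdown (0.57), Hsd17b10 of isoleucine breakdown (0.94) and Afmid of the kynurenine pathway (0.53) did not pass either.

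Ido2 and Sdsl are close relatives in function of Tdo2 and Sds. Ido2, a relative of Tdo2 in tryptophan breakdown, was the 1 gene of the 18 with a lower mean, with 1049, 1382 and 1156 in AAV-GFP and 959, 810 and 818 in AAV-Ly6d. Its log2 difference was -0.47 and did not pass (adjusted p = 0.0596 in limma), although its groups did not overlap, as was so in the lower direction for 49.3% of tested genes. Sdsl, the serine dehydratase-like gene 3715 bases from Sds on the other strand, had 134, 169 and 77 in AAV-GFP and 212, 465 and 195 in AAV-Ly6d. Its log2 difference of 1.15 was close to that of Sds and did not pass (adjusted p = 0.0531 in limma). In AAV-GFP replicate 2 Sdsl was at its highest control value and Sds at its lowest.

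**Figure D4:**
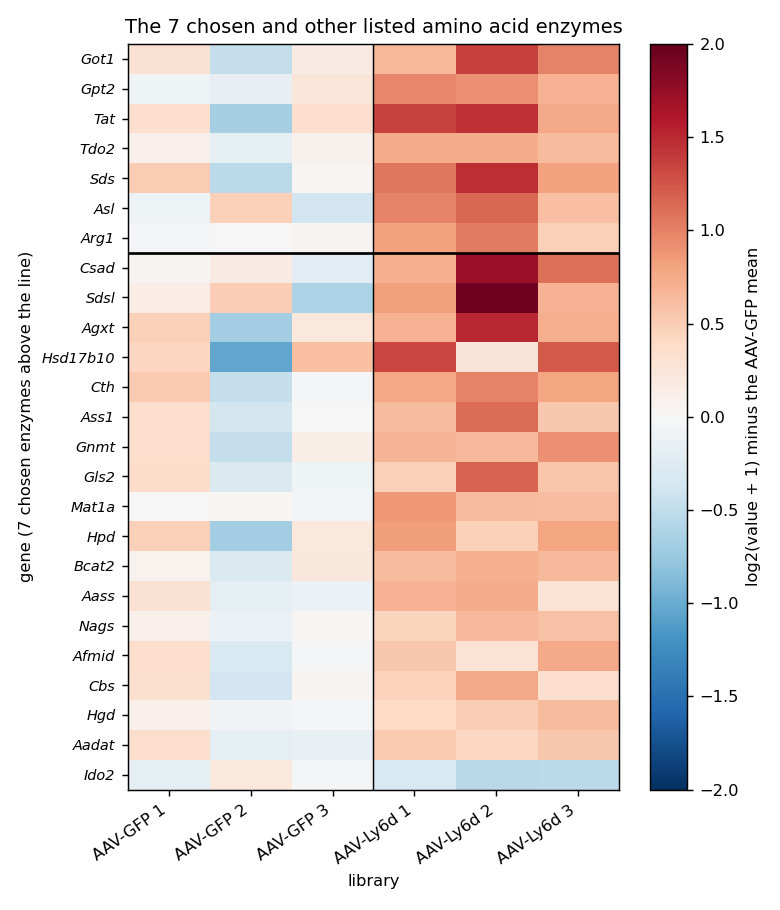
Log2(value + 1) minus the AAV-GFP mean (colour) for the 7 chosen enzyme genes (above the line, by role) and the 18 other listed enzymes (by their difference) in each library. Of the 18, 17 have a higher mean in AAV-Ly6d, and Ido2 has -0.47.

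Transporters and regulators linked to these enzymes were measured in small numbers. Of 20 listed amino acid transporters 3 are in the table, and 1 rose and 1 fell, beside 15.9% and 28.0% of tested genes. Slc25a47, a mitochondrial carrier of liver, rose by 0.79, Slc43a2, a carrier of neutral amino acids, fell by 0.98 on the log2 scale but did not pass after rescaling of the libraries or in edgeR or DESeq2, and Slc25a22, the mitochondrial glutamate carrier, had 0.90 and did not pass. Among regulators, Hnf4a, a nuclear receptor of hepatocytes, rose by 0.65, and Cebpa, a transcription factor of hepatocytes, had 0.47 and did not pass. Without AAV-GFP replicate 2 the median of the 3 transporters was 0.43 instead of 0.79. Without any one of the other 5 libraries 0 of these 5 genes passed. Over all tested genes 0 to 61 rose and 0 to 83 fell in those fits, against 283 and 499 with all libraries.

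Targets of glucagon, of glucocorticoids and of the amino acid shortage factor ATF4 were also counted, beside the 15.9% of all tested genes that rose. Of 9 glucagon and fasting genes 6 were tested and 5 rose: Igfbp1, a secreted protein repressed by insulin (1.72), Pfkfb1 (0.94), Pck1, which commits carbon to glucose synthesis (0.86), Fbp1 (0.69) and Cpt1a (0.58). Without AAV-GFP replicate 1, or any one AAV-Ly6d library, 0 passed, and 2 passed without AAV-GFP replicate 3. Of 9 glucocorticoid targets 3 were tested and 1 rose, namely Fkbp5, a chaperone of the glucocorticoid receptor (1.92), while Mt2 (2.85) and Angptl4 (0.83) did not pass. Its values were 462, 422 and 1100 in AAV-GFP and 3436, 1943 and 1740 in AAV-Ly6d. Leaving out AAV-GFP replicate 3 let 2 of the 3 targets pass, and leaving out AAV-GFP replicate 1 or any single AAV-Ly6d library let 0 pass. Of 13 ATF4 targets 5 were tested and 2 rose, Fgf21 (2.28) and Trib3 (1.23). Asns, asparagine synthetase, did not pass (2.30), with 414 in AAV-Ly6d replicate 2 against 53 and 34 in its partners. The median of the ATF4 targets was 1.53, or 0.87 if AAV-GFP replicate 2 is left out. When AAV-GFP replicate 1 or any single AAV-Ly6d library was left out, 0 of them passed.

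Markers of where in the liver lobule a hepatocyte sits were counted beside the 15.9% of tested genes that rose and the 28.0% that fell. Leaving out Sds, Arg1 and Asl, 7 of 14 listed periportal genes were tested, and 4 rose (Mup20, Pck1, Ass1 and Gls2), 0 fell and 3 did not pass. Their median log2 difference was 0.77. Mup20 has near copies that can share reads. With AAV-GFP replicate 2 left out, Mup20, Pck1 and Sdsl passed and Ass1 and Gls2 did not. With AAV-GFP replicate 1 or 3 or AAV-Ly6d replicate 2 left out, Mup20 alone of the 7 passed, and with AAV-Ly6d replicate 1 or 3 left out 0 did. Over all tested genes the rises in these fits were 61, 57 and 21, then 0 and 6, against 283 with all libraries. Of 19 listed pericentral genes 3 were tested and 1 fell, Lgr5 (-1.21), a share near the background. The others, Cyp2c29 (-0.91) and Car3 (-1.32), did not pass. Lgr5 also passed with AAV-GFP replicate 1 left out, but with none of the other 5 left out. Falls over all tested genes ran from 0 to 324 with a library left out, against 499 with all libraries.

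Markers of other liver cell types were counted beside the same 28.0% lower and 15.9% higher over all tested genes. All 8 tested endothelial markers of 15 listed fell, and their summed normalised count ran from 6927 to 11225 in AAV-GFP and from 2560 to 3196 in AAV-Ly6d, with 0 of them at 0 in all libraries. All 8 also fell when any single AAV-GFP library or AAV-Ly6d replicate 2 was left out. Leaving out AAV-Ly6d replicate 3 left 2 of them, and leaving out AAV-Ly6d replicate 1 left 0, as it did over the whole table. Of 12 stellate cell markers 7 were tested and 6 fell, with sums of 3494 to 5107 and 1078 to 2424. With AAV-Ly6d replicate 1 or 3 left out 0 stellate markers fell, and with AAV-GFP replicate 1 or 3 left out 3 did. Without AAV-GFP replicate 2 there were 4, and without AAV-Ly6d replicate 2 there were 6. Falls over all tested genes were 499 with all libraries. They were 73, 324 and 82 without AAV-GFP replicates 1, 2 and 3, and 0, 83 and 13 without AAV-Ly6d replicates 1, 2 and 3. Of 12 hepatocyte markers 4 were tested, and Apoa1 (1.12) and Hnf4a rose while Serpina1a (0.41) and Apob (-0.61) did not pass. When any single library other than AAV-GFP replicate 2 was left out, 0 of these 4 hepatocyte markers passed. Over all tested genes only 0 to 61 rose in those fits, against 283 with all libraries, so nothing is read from this 0. Their sums ran from 303265 to 821115 in AAV-GFP and from 380716 to 397336 in AAV-Ly6d. Apob reached 743167 in AAV-GFP replicate 2, against 186314 to 216089 in the other 5 libraries. Of 7 erythroid markers 4 were tested and 1 fell, near the background. Of 8 bile duct markers 2 were tested and rose (Sox9 and Tff3), with sums of 59.2 to 80.2 in AAV-GFP and 303 to 1111 in AAV-Ly6d. With AAV-Ly6d replicate 1 left out 0 bile duct markers rose, and with AAV-GFP replicate 1 or AAV-Ly6d replicate 2 or 3 left out 1 did. Over all tested genes 0 rose in the first of these fits and 61, 21 and 6 in the others. None of the 12 Kupffer cell or 10 lymphocyte markers is analysed here. The part of these cell types in the difference of the 7 enzyme genes was not tested.

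The 8 genes whose spread within the groups was most like the mean of the 7 enzymes included Ass1 and Cbs, both amino acid enzymes. These had the lowest r of the 8 (Pearson r 0.93 each). The search covered 858 genes at or above the median level of the table (209) and used all 6 libraries. The highest r values belonged to Lrrfip1 (0.97), Psmd9, a proteasome assembly factor (0.97), the lysosomal genes Grn (0.94) and Ctsl (0.93), Rtn4rl1 (0.94) and Ldb1 (0.93). With 4 free values, 11 of the 858 had an r above 0.9 and 35 an r below -0.9. All 8 had higher means in AAV-Ly6d, with log2 differences from 0.52 in Cbs to 0.89 in Psmd9.

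The size of the differences depended on how libraries were scaled. When every library was rescaled to a common median ratio, the median log2 difference of all tested genes shifted by 0.34, from -0.67 to -0.33, and that of the 7 enzymes from 0.92 to 1.26. A factor per library shifts every gene about alike, so both medians move together by construction. After the rescaling 15 of the 18 other enzymes passed, all higher, as did 651 of the 1780 tested genes in the higher direction. The share of calls that were higher went from 36.2% of 782 to 69.2% of 941. None of the 75 listed genes changed sign with this rescaling, in edgeR or in DESeq2.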

How the data were processed

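RNA of mouse liver was sequenced in 3 AAV-GFP and 3 AAV-Ly6d libraries. Per the submitters' processing notes, which give no role or order, the tools and builds include Bowtie 0.12.2 and mm10. The sources used here do not state the counting, strand setting, annotation, normalisation or choice of genes. The deposited values are a normalised signal: per the values themselves, each is a whole number of reads times 1 factor per library (100% within 0.001 of a whole number). Identifiers were matched to GENCODE M21 (GRCm38), and 1833 of 1834 had a symbol.

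Genes reaching a value of 1 in 3 or more libraries (1780) were compared with limma 3.58.1 in R 4.3.3 on log2(value + 1), with a mean-variance trend, no covariates and a Benjamini-Hochberg adjusted p under 0.05 over all tested genes. "Rose" and "fell" mean this call. Differences on this scale understate the change of low genes. The script was tested on simulated data. The table appears to hold genes that differ between these libraries, so the adjusted p-values are too small. The 7 genes and the gene lists were chosen with earlier results of these data known. A listed regulator is not reported here. Named are the 7 genes, list genes in the table and the 8 most similar genes of median level or above. Alternatives were a library left out, other pseudocounts, filters, scaling, thresholds and adjustment, a replicate block, and edgeR 4.0.16 and DESeq2 1.42.0 on recovered reads. The replicate numbers do not pair the libraries by any label.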

Additional observations from a re-analysis of the deposited data

How the results depend on the processing

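Over 84 refits of the 7 enzyme genes the log2 differences ran from 0.61 to 1.53. Since the groups do not overlap, leaving out a library could not turn their direction. The replicate block cannot change these differences in a balanced design, and pseudocounts barely move counts this high, so those refits are no check. The median of the 7 (0.92) ran from 0.78 to 1.02 with a library left out. It was 1.26 after rescaling by the median ratio, 1.19 in edgeR and 1.27 in DESeq2.

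The 9 rises among the 18 other enzymes ran from 0 to 8 with a library left out, beside 0 to 283 rises over all tested genes. Rises among the 18 were 15 after rescaling by the median ratio, 15 in edgeR, 17 in DESeq2 and 2 without the mean-variance trend. Over all 1780 tested genes the rises in the same settings were 651, 668, 697 and 138, against 283 in the main fit. At an adjusted p under 0.01 or with the adjustment over the 55450 annotated genes, 0 of the 18 rose. In these last 2 settings 14 of the 18 and 78.3% of all tested genes, in either direction, had an unadjusted p under 0.05. Over all tested genes, the 782 calls in limma ran from 0 to 607 with a library left out. The count of 0, without AAV-Ly6d replicate 1, came with 773 genes at an unadjusted p under 0.05. It was 1 at an adjusted p under 0.01 and 1 over the annotation. Pseudocounts of 0.5 and 5 and both filters gave 8 of the 18, beside 248 to 268 rises over all tested genes.

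With the replicate number as a block, 48 genes were called over the table and 0 of the 18. In that fit 12 of the 18 and 63.3% of all tested genes, in either direction, had an unadjusted p under 0.05. After the group means were subtracted, same-numbered libraries had r of -0.02, -0.05 and -0.06 over the tested genes. With 3 libraries per group and a table of chosen genes, this cannot settle whether they were handled together. The table covers part of each library, and full depth is not known.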
